A study of Mus musculus with 6 samples.

Results

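Points of hnRNP UL1 binding were mapped at 4 mouse genes of chromatin and transcription control, Arid5b, Ncor1, Dnmt3a and Zmiz1, in RAW 264.7 cells before and during exposure to lipopolysaccharide (LPS). The 4 genes were chosen by measured values of the same tables, namely their numbers of peaks and, for Ncor1 and Zmiz1, the distance of their peaks from those of another time, so these values are a description with no test. A point belonged to a gene when the authors named the gene as nearest to it, or when it lay in the gene or in the 5 kb upstream. By this rule there were 122 points, 38 at 0 h, 57 at 4 h and 27 at 10 h, among 18624 points of all 3 tables.

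RAW 264.7 is a macrophage cell line grown from a mouse tumour, and the label calls the cells murine macrophages. The groups were untreated cells (0 h), cells given LPS at 100 ng/ml for 4 h and cells given it for 10 h, with 1 ChIP library each, all precipitated with the same hnRNP UL1 antibody. Inputs of the 3 times were not analysed here. Each table row gives a peak as a point 2 bp wide with an annotation and a nearest gene, and no height, extent or read depth, so depth is unknown and a point is either listed or not. With 1 library per time, times were compared by counts and distances, with no test and no p-value.

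The tables are ordered by the Ensembl ID of the nearest gene, and the 10 h table ends at ENSMUSG00000022416. Times were compared over the rows below this ID, which held 1312 points at 0 h, 5298 at 4 h and 1152 at 10 h. The 4 genes all have lower IDs, and 28, 56 and 25 of these points were counted at them at 0, 4 and 10 h. Peak tables measure no expression, so the macrophage label could not be checked by transcripts. Of 10 macrophage genes 5 were named in the compared rows, with 19, 38 and 24 points at 0, 4 and 10 h. Ctsb alone held 16, 17 and 19 of these. Of 6 T and B cell genes 0 were named there and 2 by rows beyond them, beside 3 of the macrophage genes. These lists therefore do not check the cell type.

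The protein hnRNP UL1 is an RNA-binding protein of the nucleus with roles in RNA processing and DNA repair. Coregulators do not start transcription by themselves. They are brought to DNA by other factors or act on chromatin, and in macrophages they hold back or permit inflammatory genes. Arid5b carries an AT-rich interaction domain and works with the histone demethylase Phf2. Ncor1 is the scaffold of a corepressor complex with the deacetylase Hdac3 and represses genes bound by nuclear receptors. Dnmt3a places methyl groups on unmethylated DNA. Zmiz1 is a PIAS-like coactivator of Notch1 and of the androgen receptor.

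Gene starts where points lay close by are shown first, as 300 bases of RefSeq sequence of GRCm38.p6 from 250 bases before to 50 after the start. Ncor1 begins at chr11:62457283-62457582 (minus strand) and faces away from Pigl, a gene of glycosylphosphatidylinositol synthesis, which begins at chr11:62458191-62458490 (plus strand). The 0 h point at 62457643 lay 61 bp beyond the Ncor1 window, and the 4 h point at 62458500 lay 10 bp beyond the Pigl window. Dnmt3a also has a start inside the gene, at chr12:3891494-3891793 (plus strand), and the 4 h point at 3892324 lay 531 bp beyond that window. Capitals mark matches to a loose form of the NF-kB motif, GGG and CC with any 5 bases between them, on either strand. Overlapping matches run together, and no other searched motif occurred in these windows.
Ncor1: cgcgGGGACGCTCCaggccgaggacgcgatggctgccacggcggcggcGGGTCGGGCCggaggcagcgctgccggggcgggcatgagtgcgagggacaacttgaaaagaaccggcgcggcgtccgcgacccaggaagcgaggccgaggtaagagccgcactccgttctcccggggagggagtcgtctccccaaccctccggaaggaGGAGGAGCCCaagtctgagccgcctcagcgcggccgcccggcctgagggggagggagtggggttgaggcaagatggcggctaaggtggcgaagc
Pigl: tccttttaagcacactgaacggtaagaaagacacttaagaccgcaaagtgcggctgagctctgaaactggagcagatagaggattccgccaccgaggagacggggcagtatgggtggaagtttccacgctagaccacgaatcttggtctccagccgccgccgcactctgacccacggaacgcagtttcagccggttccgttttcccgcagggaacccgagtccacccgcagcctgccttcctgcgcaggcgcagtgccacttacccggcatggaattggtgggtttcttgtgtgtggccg
Dnmt3a internal start: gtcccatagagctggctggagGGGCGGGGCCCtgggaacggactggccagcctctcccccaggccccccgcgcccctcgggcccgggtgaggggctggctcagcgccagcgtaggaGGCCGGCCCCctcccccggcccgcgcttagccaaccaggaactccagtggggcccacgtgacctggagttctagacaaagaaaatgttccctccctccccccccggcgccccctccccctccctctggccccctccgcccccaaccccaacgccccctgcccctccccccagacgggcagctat

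This NF-kB pattern matched 3 times in the Ncor1 window, 3 times in the Dnmt3a window and 0 times in the Pigl window. It occurred in 50.8% of 32851 promoter windows of this length, so its presence is common. GAGGAAGT (PU.1), TGANTCA (AP-1), TTNCNNAA (C/EBP) and GAAA repeated after any 2 bases (IRF) were also searched on both strands, and 3.20%, 7.81%, 40.7% and 3.44% of all windows held them. The shown Ncor1, Pigl and Dnmt3a windows held 36, 22 and 18 CpG dinucleotides, against a median of 7. Another Ncor1 window, at 62438466 to 62438765 inside the gene, held 2 CpG, 0 NF-kB matches and 1 C/EBP match. The nearest 4 h point lay 1131 bp beyond it. Dnmt3a windows not shown held 46 and 47 CpG and 4 and 3 NF-kB matches. The Arid5b window held 0 NF-kB matches, and the Zmiz1 window held 0 NF-kB and 2 C/EBP matches. The RefSeq start of Arid5b had its nearest point at 4 h, 972 bp beyond its window, and the window of Zmiz1 had none nearer than 33.8 kb at 0 h, 41.8 kb at 4 h and 151 kb at 10 h.

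The genes had different courses over time, as the plot of points per gene shows. Arid5b held 7 points at 0 h, 20 at 4 h and 13 at 10 h. Ncor1 held 2, 7 and 8, the only one of the 4 with more points at 10 h than at 4 h. This order depended on the way of counting. With points within 1000 bp merged Ncor1 held 7 at both 4 h and 10 h, and with 10 kb upstream 8 at both. In the gene body alone, or by rows naming it, it held 5 at 4 h and 8 at 10 h. Of the counted points 2 at 4 h lay in Pigl and 4 at 10 h in Ttc19, genes that overlap the counted region. The order of Ncor1 also depends on whether these points are given to it. Dnmt3a held 7, 14 and 1, and Zmiz1 held 12, 15 and 3 over the compared rows. The counts of Dnmt3a and Zmiz1 were lower at 10 h than at 0 h, and those of Arid5b and Ncor1 were higher. Together the 4 genes held 2.13%, 1.06% and 2.17% of the compared points at 0, 4 and 10 h. Their share was thus lowest at 4 h, where the table is longest and their count highest.

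**Figure D1:**
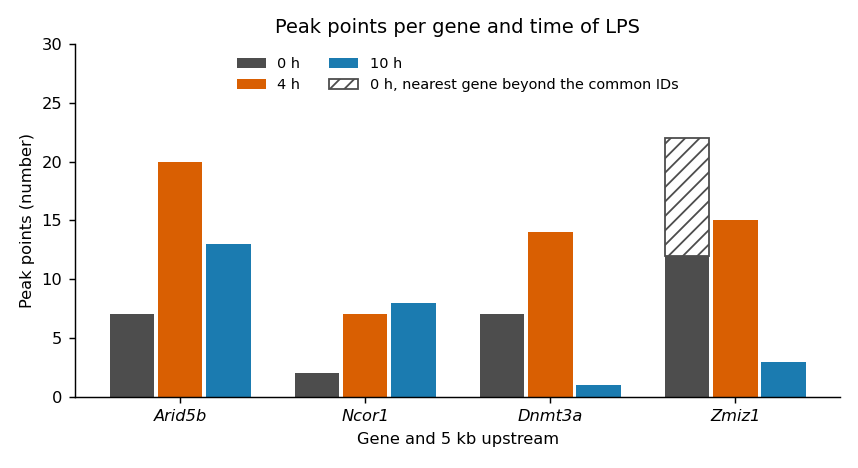
Number of peak points in each gene and its 5 kb upstream at 0, 4 and 10 h of LPS, 1 library per time. Arid5b, Dnmt3a and Zmiz1 have their tallest solid bar at 4 h (20, 14 and 15 points) and Ncor1 at 10 h (8 points). The hatched part stands for 10 Zmiz1 points at 0 h whose nearest gene has an ID not reached by the other tables.

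All 4 genes held points at all 3 times, which was so for 10.4% of the 2070 protein-coding genes named in the compared rows. Points were held by 33.2% of those genes at 0 h, by 77.4% at 4 h and by 27.5% at 10 h, and 6.76% had more points at 10 h than at 4 h. Since the genes were chosen for their points, nothing is read from these shares. Scaled by length, the 4 genes with their 5 kb upstream, 670 kb in all, held 4.18 points per 100 kb at 0 h, 8.35 at 4 h and 3.73 at 10 h. The 285 genes of at least 100 kb, which include the 4, held 0.442, 1.75 and 0.404 per 100 kb. Numbers of peaks entered the choice of the 4 genes, so nothing is read from this contrast either.

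By the order of counts at each time, 3 other genes held as many points as Zmiz1 or more at 0 h, and 13 held as many as Arid5b or Dnmt3a. At 4 h 10 other genes held as many as Arid5b or more, 25 as many as Zmiz1 and 30 as many as Dnmt3a. At 10 h 3 other genes held as many as Arid5b or more and 65 as many as Zmiz1. For Ncor1 there were 185 and 100 genes at its count or above at 0 and 4 h, and 9 at 10 h. The single 10 h point of Dnmt3a was matched or passed by 568 genes. The genes were chosen for their numbers of peaks, so nothing is read from these ranks.

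Arid5b (ENSMUSG00000019947, chromosome 10, 68092523 to 68279355, minus strand) spans 187 kb, with this and the following gene spans taken from RefSeq GRCm38.p6. At 0 h its points lay at 68283095 upstream, at 68232130 and 68190395 in intron 3, at 68173624 and 68172765 in intron 4, at 68118568 in intron 7 and at 68117597 in intron 8. These were 2 close pairs and 3 single points, and the widest gap between neighbours was 54.2 kb. At 4 h the 20 points ran from 68279948 upstream to 68102572 in intron 8 with a median gap of 7.68 kb. Of 3 equal parts of the gene from its 5′ end, the first held 10 of them, the middle 5 and the last 4.

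At 10 h the 13 Arid5b points were placed otherwise, with 3 in the first part, 7 in the middle part and 3 in the last part. Intron 4 alone held 5 of them, of which those at 68177681, 68179896 and 68182042 were spaced by 2215 and 2146 bp. The 10 h point at 68098203 lay in the 3′ UTR. The nearest 10 h point lay 9659 bp from the promoter window. A non-coding gene, Gm51770 (68151106 to 68230091), overlaps Arid5b, and 3, 7 and 8 of the points at 0, 4 and 10 h lay in it, so points there cannot be given to one gene.

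The one place among the 4 genes where points of all 3 times lay close together was in intron 4 of Arid5b. Points stood at 68172321 (4 h), 68172765 (0 h), 68173020 (10 h) and 68173624 (0 h), a stretch of 1303 bp. The 0 h and 10 h points were 255 bp apart and the 0 h and 4 h points 444 bp. In the same intron a 10 h point lay 108 bp from the 4 h point at 68180004, and in intron 3 the points at 68221357 (10 h) and 68221592 (4 h) were 235 bp apart. Points linked in this way were neighbours at most 1500 bp apart, a distance set after the positions were seen.

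**Figure D2:**
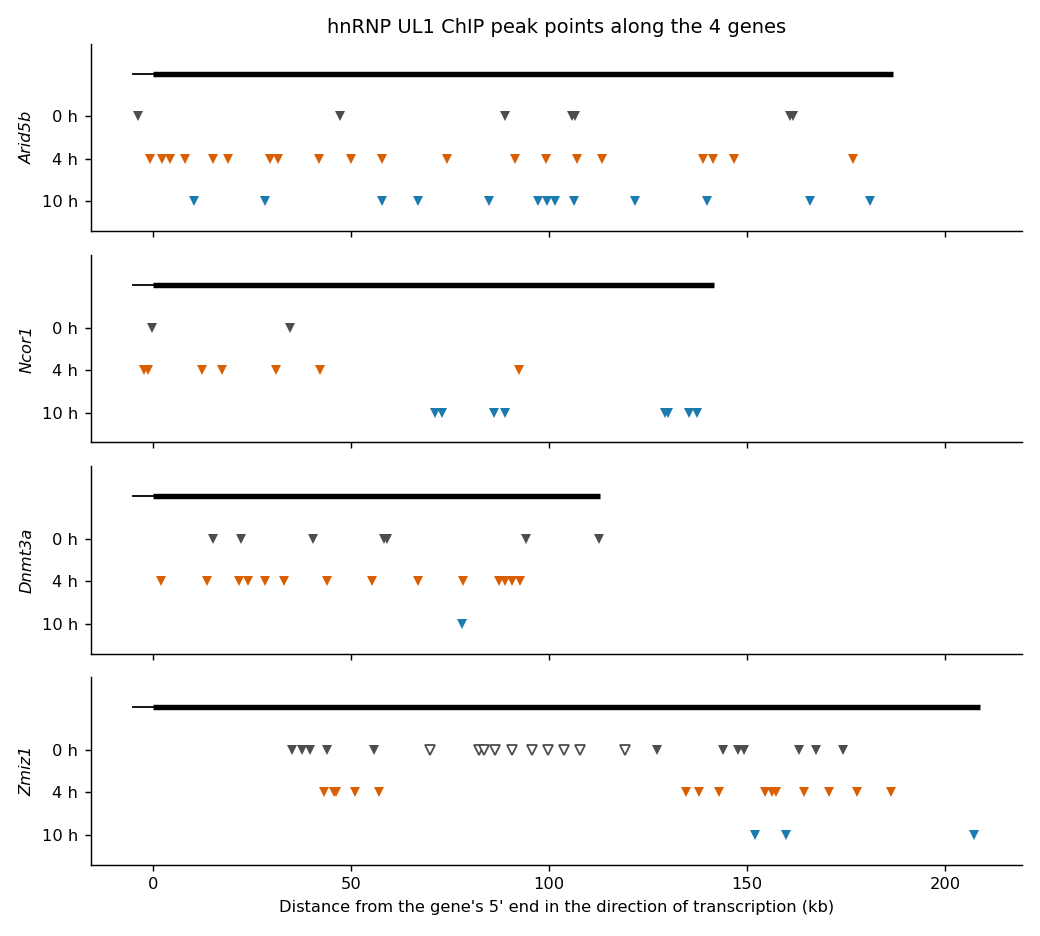
Peak points (triangles) along Arid5b, Ncor1, Dnmt3a and Zmiz1 by distance from the 5′ end in kb, with a row each for 0, 4 and 10 h; the thick line is the gene and the thin line the 5 kb upstream. Open triangles are the 10 Zmiz1 points at 0 h whose nearest gene has an ID not reached by the other tables. The Ncor1 points of 10 h all lie from 50.3% of the gene onward, and 6 of the 7 at 4 h at 29.8% or before.

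Ncor1 (ENSMUSG00000018501, chromosome 11, 62315663 to 62457414, minus strand) spans 142 kb. Its points at 0 h were 1 at its start, 62457643, and 1 in intron 3 at 62422785. At 4 h points lay at 62459739 and 62458500, both nearest to Pigl, at 62444974 in intron 1, at 62439896 near a second RefSeq start, at 62426401 in intron 2, at 62415130 in intron 4 and at 62364860 in intron 21. Thus 6 of 7 points at 4 h lay upstream or in the first of 3 equal parts of the gene. The pair nearest to Pigl was counted at Ncor1 because the genes start close together, and it cannot be given to one of them.

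At 10 h Ncor1 held 8 points and 0 of them lay in that first part or upstream. They ran from 62386166 to 62319990, which is 50.3% to 96.9% of the way from the 5′ end. The points came in pairs, with gaps of 2134, 872, 2768 and 1765 bp inside the pairs and of 5083, 40451 and 13103 bp between them. The authors' annotation put all 8 within 3 kb of a transcript start, and 3 of them within 1 kb, against 34.5% of all 10 h points within 3 kb. These starts belong to Ncor1 transcripts that begin inside the gene, so the annotation does not place the points at the 5′ end. The 4 points from 62319990 to 62328079 also lie in Ttc19, a gene for a mitochondrial protein, which overlaps the 3′ end of Ncor1. They cannot be given to one of these genes.

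The nearest approach of a 10 h point to a 4 h point at Ncor1 was 3670 bp, and the median distance was 29.0 kb. Over the compared rows the nearest 0 h point was at least 36619 bp away, and over the whole 0 h table a point with a higher ID lay 6098 bp from the 10 h point at 62319990. No point of any time at Ncor1 lay within 500 bp of a point of another time, and the closest pair was the 0 h point at the Ncor1 start and the 4 h point at the Pigl start, 857 bp apart. Ncor1 was chosen for the distance of its 10 h points from those of 4 h, so this separation is a description.

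Dnmt3a (ENSMUSG00000020661, chromosome 12, 3801559 to 3914443, plus strand) spans 113 kb. At 0 h its points lay at 3816879, 3823889 and 3841917 in introns, at 3860036, 3860670 and 3895772 within 1 kb of starts of short transcripts, and at 3914128 in the 3′ UTR. The pair at 3860036 and 3860670, 634 bp apart, lies inside the non-coding gene Dnmt3aos (3859293 to 3862244). None of the points at 4 h or 10 h lay in Dnmt3aos.

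At 4 h the 14 Dnmt3a points were spread from 3803685 to 3894203, with no gap above 11.7 kb and a median gap of 8.03 kb. The first of 3 equal parts of the gene held 6 of them, the middle 3 and the last 5. The points at 3888863, 3890394, 3892324 and 3894203 stood around the internal start, spaced by 1531, 1930 and 1879 bp. At 0 h the nearest point to the window at that start was 3979 bp away and at 10 h 11.9 kb. The non-coding gene Gm31623 (3879385 to 3894686) overlaps this end of Dnmt3a and held 0, 5 and 1 of the points at 0, 4 and 10 h.

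At 10 h the only point inside Dnmt3a lay at 3879598 in intron 6 of 22, 279 bp from the 4 h point at 3879877. A second 10 h point named Dnmt3a as nearest but lay past its 3′ end, at 3914909, 781 bp from the 0 h point in the 3′ UTR. By rows that name the gene Dnmt3a thus had 2 points at 10 h.

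Zmiz1 (ENSMUSG00000007817, chromosome 14, 25457875 to 25666743, plus strand) spans 209 kb and held the most 0 h points of the 4 genes. The whole 0 h table held 22 points in it, but 10 of them, from 25527967 to 25577126, name other nearest genes. Of these, 4 name ENSMUSG00000093081, which has the coordinates of the RefSeq microRNA gene Mir3075 (25534439 to 25534523), and 6 name ENSMUSG00000097136 (25548390 to 25554369). Both IDs are higher than the last ID at 4 h and at 10 h. A later peak nearest to either gene in these 49.2 kb would have no row, so the empty middle of Zmiz1 at those times cannot be told apart from the place where the tables stop.

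Over the compared rows the 12 Zmiz1 points of 0 h fell into 2 stretches. In the first, points lay at 25493056, 25495647, 25497629, 25501830 and 25513636. In the second, they lay at 25585147, 25601743, 25605534, 25607078, 25621140, 25625370 and 25632181. The 15 points at 4 h fell into the same stretches, 5 from 25501031 to 25514880 and 10 from 25592593 to 25644143. At 10 h points lay at 25609976 and 25617818 in the second stretch and at 25665295 in the 3′ UTR. By the annotation intron 6 of 23 in the second stretch held 5 points at 0 h, 9 at 4 h and 1 at 10 h. The 0 h point at 25605534 also lies in the protein-coding gene Gm45915 (25603513 to 25605636). The points at 25585147 (0 h) and 25592593 (4 h) lie in the non-coding gene Gm32497 (25581505 to 25594001). These points cannot be given to one gene.

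The 12 counted points of Zmiz1 at 0 h were 799 to 7975 bp from the nearest 4 h point, with a median of 3462 bp, and none was within 500 bp. The extent of the peaks is unknown, so whether peaks of 0 h and 4 h overlap there cannot be told. The closest neighbours were 799, 991, 1154 and 1244 bp apart. The 3 points at 10 h were 2384, 2703 and 21152 bp from a 4 h point. Zmiz1 was chosen for the distance of its 0 h points from those of 4 h.

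Over the 4 genes 1 of 28 points at 0 h lay within 500 bp of a 4 h point, a share of 3.57% with an exact 95% Clopper-Pearson interval from 0.0904 to 18.3%, against 19.1% of all 0 h points. Of points over 1 kb from a start 1 of 22 did so at the 4 genes (4.55%, 0.115 to 22.8%), against 15% of all. At 10 h 3 of 25 points lay within 500 bp of a 4 h point (12%, 2.55 to 31.2%), against 20.3% of all 10 h points. Over 1 kb from a start this was 3 of 22 (13.6%, 2.91 to 34.9%), against 18% of all. These intervals cover counting error only, and neighbouring points are not independent. The distances of Zmiz1, which gave 12 of the 28 points at 0 h, entered the choice of the genes, so nothing is read from the difference to all points.

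In the other directions the counts were as small. Of the 28 points at 0 h 1 lay within 500 bp of a 10 h point, against 7.39% of all, and of the 25 at 10 h 1 lay near a 0 h point, against 7.99%. Of the 56 points at 4 h 1 lay near a 0 h point and 3 near a 10 h point, against 4.85% and 4.98% of all 4 h points. Apart from 1 Dnmt3a pair, every pair within 500 bp was at Arid5b. Of the 13 Arid5b points at 10 h 2 lay within 500 bp of a 4 h point, with a median distance of 2102 bp over all 13, and at Arid5b 1 of 7 points at 0 h did.

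The small counts depended on the 500 bp limit. Within 1000 bp of a 4 h point lay 5 of the 28 points at 0 h (17.9%), against 26.7% of all 0 h points. Within 1000 bp of a 10 h point lay 3 of them (10.7%), against 10.1% of all. Of the 56 points at 4 h 5 lay within 1000 bp of a 0 h point (8.93%), against 7.49% of all 4 h points.

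At the median the 0 h and 10 h points of the 4 genes lay a few kb from a 4 h point, and farther from points of the other time. The median distance of their 0 h points to a 4 h point was 3.17 kb, against 4.81 kb for all 0 h points, and 21 of 28 lay within 5 kb. For their 10 h points it was 4.37 kb, against 3.88 kb. To a 10 h point the median was 15.3 kb from 0 h points and 10.9 kb from 4 h points, against 44.9 and 43.3 kb. To a 0 h point it was 6.02 kb from 4 h points and 19.0 kb from 10 h points, against 46.9 and 31.4 kb. The distances of Ncor1 and Zmiz1 and the numbers of peaks entered the choice of the genes, so nothing is read from these medians.

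**Figure D3:**
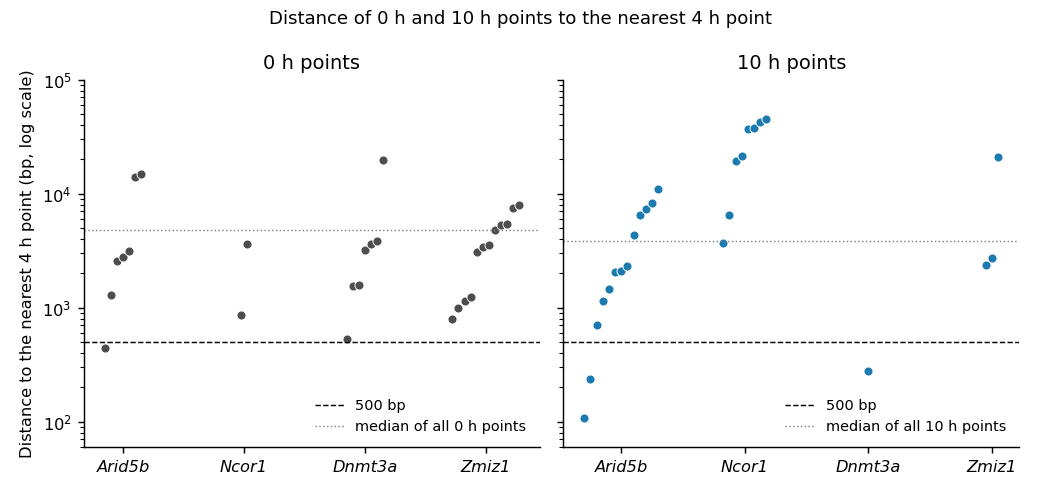
Distance in bp (log scale) of each 0 h point (left) and 10 h point (right) of the 4 genes to the nearest 4 h point; each dot is 1 point. The dashed line marks 500 bp and the dotted line the median of all points of that time over the compared rows (4.81 kb at 0 h, 3.88 kb at 10 h). Below the dashed line lie 1 point at 0 h and 3 at 10 h, and the 10 h points of Ncor1 lie between 3670 and 44870 bp.

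By the authors' annotation most points of the 4 genes lay in introns. At 0 h 19 of 28 did (67.9%, 47.6 to 84.1%), at 4 h 41 of 56 (73.2%, 59.7 to 84.2%) and at 10 h 13 of 25 (52.0%, 31.3 to 72.2%). Of all points 32.4%, 40.7% and 42.2% lay in introns at 0, 4 and 10 h. This background also holds points between genes, which the counted region of long genes mostly leaves out. Arid5b was mostly intronic throughout, with 6 of 7 points at 0 h, 17 of 20 at 4 h and 11 of 13 at 10 h. By the same annotation 0 of its points lay within 1 kb of a start at any time. Its 4 h point at 68279948 nevertheless lay at -593 bp from the 5′ end of the RefSeq span.

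Within 1 kb of an annotated start lay 6 of 28 points at 0 h (21.4%, 8.30 to 41.0%), 4 of 56 at 4 h (7.14%, 1.98 to 17.3%) and 3 of 25 at 10 h (12%, 2.55 to 31.2%). Of all points the shares were 34.5%, 20.1% and 20.8%. This background holds points at genes of all lengths, while the 4 genes span 113 to 209 kb. Gene length was not taken into account in the shares near starts. Within 3 kb lay 7, 15 and 10 points of the 4 genes at 0, 4 and 10 h, against 47%, 36.5% and 34.5% of all points. At 10 h 8 of these 10 were the Ncor1 points. At 0 h the 6 points within 1 kb comprised 3 at Dnmt3a, 2 at Zmiz1 and 1 at Ncor1, and only the Ncor1 point lay within 1 kb of a start in the RefSeq promoter table.

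**Figure D4:**
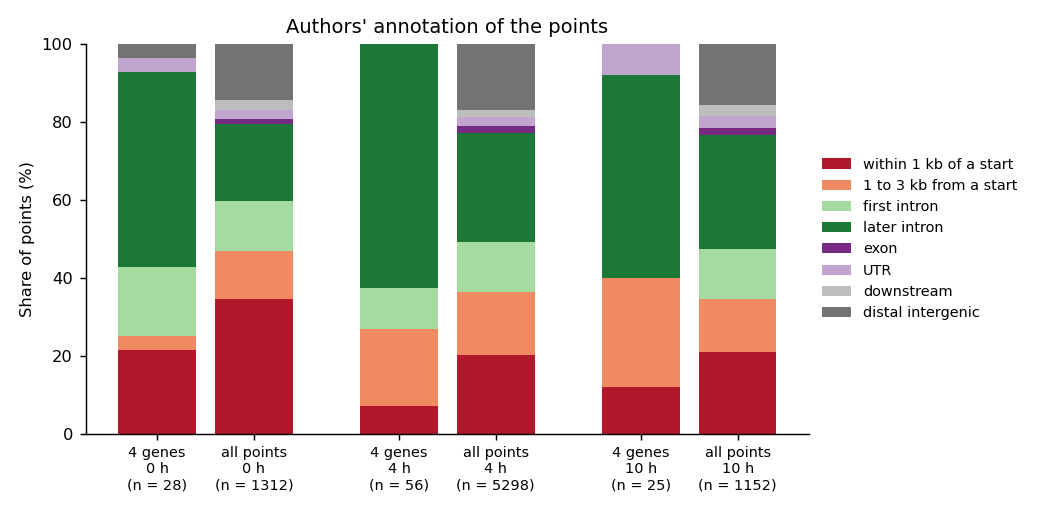
Share in percent of the points of the 4 genes and of all points of the compared rows in each class of the authors' annotation at 0, 4 and 10 h, with the number of points under each bar. Introns (greens) make up 67.9%, 73.2% and 52.0% of the points of the 4 genes and 32.4%, 40.7% and 42.2% of all points.

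Related coregulator genes were then counted from 9 lists, 114 genes in all, chosen with earlier results of these data known. Of these 21 were named in the compared rows, 47 were named by rows beyond them and 46 were named by no row. Only the 21 were counted. A gene that no row names was left out and not counted as 0, even if its ID lies in the compared range. Without the 4 genes, 17 members held 11 points at 0 h, 32 at 4 h and 6 at 10 h. Of the 17 members 7, 14 and 5 held a point at 0, 4 and 10 h, beside 33.2%, 77.4% and 27.5% of the 2070 genes. Both groups hold only genes that a row names, so these are not shares of all genes in the range. Their median was 0 points at 0 h, 1 at 4 h and 0 at 10 h, the same medians as over all 2070 genes.

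The list of the NCoR and SMRT corepressor complex held Ncor1 alone in the compared rows, and the list of transcription factor corepressors held no gene. Among DNA methylation genes Dnmt3l, a partner of Dnmt3a without catalytic activity, held 1, 1 and 0 points at 0, 4 and 10 h, and Dnmt1, the maintenance methyltransferase, held 0 at each time. Among ARID genes Arid3b held 0, 1 and 2 points, and Arid1a, a subunit of the SWI/SNF remodelling complex, held 0, 1 and 0. Pias4, a SUMO ligase of the family to which Zmiz1 is related, held 0, 1 and 0, as did the remodeller subunit gene Smarcb1.

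The list of coactivators and acetyltransferases had 5 genes in the compared rows, with 4, 15 and 2 points at 0, 4 and 10 h. Ncoa1, a nuclear receptor coactivator gene, held 1, 6 and 1 points at 0, 4 and 10 h, and the acetyltransferase gene Kat6b held 1, 4 and 1. The mediator subunit gene Med1 held 0, 3 and 0, and the acetyltransferase gene Kat2b held 0, 2 and 0. Ncoa2, a relative of Ncoa1 named after its values were seen, held 2, 0 and 0. The deacetylase gene Hdac2 held 1, 2 and 0, and Hdac9, another of this family, held 1, 1 and 0. Of the histone methylation genes Nsd1 held 4, 4 and 0, Kdm6b, a demethylase gene induced in activated macrophages, held 0, 3 and 0, Kmt2a held 0, 2 and 1 and Ezh1 held 0, 0 and 1. None of these 17 genes reached the count of Ncor1 at 4 h. Since Ncor1 was chosen with the other 3 genes for their numbers of peaks, nothing is read from this.

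Genes with the counts most like those of each of the 4 were ranked by the sum of absolute differences over the 3 times, with ties decided by the closest gene length. For Dnmt3a this was Osbpl8, with 8, 13 and 3 points at 0, 4 and 10 h and a sum of 4, followed by Kpna3 (3, 15 and 1) and Sh3bp5 (2, 14 and 1) with a sum of 5 each. Osbpl8 also came first for Zmiz1, with a sum of 6, followed by Zfat (5, 14 and 4) with 9 and Actr2 (3, 15 and 4) with 10, leaving aside Dnmt3a at 8. For Ncor1 the sum was 5 for Abca1 (0, 7 and 5), Actn1 (2, 7 and 3) and Capza2 (0, 9 and 7). All of them had fewer points at 10 h than at 4 h, unlike Ncor1 when counted with its 5 kb upstream and without merging. For Arid5b the nearest, B4galt5 (6, 21 and 4), Mbnl2 (8, 25 and 7) and Asap1 (6, 23 and 5), stood at sums of 11, 12 and 12, and all had fewer points at 10 h than the 13 of Arid5b.

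The rule's 5 kb limit decided few points. The farthest upstream inside it was the Arid5b point of 0 h at 68283095, at -4355 bp by the authors' distance. The Arid5b points at 68290244 (4 h, -11504 bp) and 68293963 (10 h, -15223 bp) lay outside it and belonged by the gene name alone.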

How the data were processed

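Chromatin of RAW 264.7 cells at 0, 4 and 10 h of LPS was precipitated with an hnRNP UL1 antibody. The 3 ChIP samples, grouped by title with 1 library per time, each have 1 table of peaks. Per the submitters' processing notes the build was GRCm38 (mm10) and the tools included MACS2 2.1.0, BWA 0.7.12 and CASAVA 1.8. Roles, thresholds, use of the input and the annotation tool are not given in the sources used here. Per the file headers the authors deposited positions and distances in bp, with no score. The unfinished last row of the 4 h table was dropped.

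The members and lists were chosen with earlier results of these data known. The design had taken gene spans from the tables, but these hold transcript spans that differ between rows, so RefSeq spans of GRCm38.p6 were used and the transcript spans became an added alternative. Strands come from the tables. A point was counted in a gene or up to 5 kb upstream, over rows whose IDs are lower than the last one at 10 h, and was near another at 500 bp or less. The 2070 protein-coding genes named there were matched by symbol and chromosome. Named were the 4 genes, up to 4 genes per list with the most points, the 3 genes most alike in counts, and nearest genes of points inside a member. Overlapping genes and Ncoa2 were named after their values were seen. Intervals are exact Clopper-Pearson (scipy 1.17.1, Python 3.11.15). Counting steps were tested on simulated data. Alternatives were other regions, distances, rows and merging of points.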

Additional observations from a re-analysis of the deposited data

Results flagged for a closer look

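In Zmiz1 10 points of the 0 h table name nearest genes with IDs that the later tables do not reach, and these points were left out of the comparison of times. They lie between 25527967 and 25577126 on chromosome 14, and with them Zmiz1 holds 22 points at 0 h. No input or second library was used to weigh them. Whether 4 h or 10 h peaks exist there cannot be told apart from where those tables stop.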

How the results depend on the processing

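No paired analysis was possible because each time has 1 library. The totals of 28, 56 and 25 points at 0, 4 and 10 h stayed within 1.5 times of themselves when rows naming the genes, gene bodies alone, 10 kb upstream, all rows, points merged within 1000 bp or transcript spans of the tables were used, the last chosen after seeing the data. Of single genes, Ncor1 at 0 h had 1 point in the gene body alone, against 2, Dnmt3a at 10 h had 2 by rows naming it, against 1, and Zmiz1 at 0 h had 22 over all rows, against 12. At 200 bp the shares of 0 h points near a 4 h or a 10 h point, and of 4 h or 10 h points near a 0 h point, were 0% each. Also at 200 bp the share of 4 h points near a 10 h point was 1.79%, against 5.36%, and that of 10 h points near a 4 h point was 4%, against 12%. At 1000 bp the share of 0 h points near a 4 h point was 17.9%, against 3.57%, near a 10 h point 10.7%, against 3.57%, and that of 4 h points near a 0 h point 8.93%, against 1.79%, so these shares depend on the distance allowed. The other shares, and those within 1 kb of a start, stayed inside their intervals under the settings tried. The coregulator lists held 39, 88 and 31 points with the 4 genes and 11, 32 and 6 without them. The 4 genes hold most of these points, but they were chosen for their numbers of peaks, so nothing is read from this. No stricter peak threshold could be tried without scores, and depth is unknown.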
